A study of Mus musculus with 12 samples.

Results

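Apol9a and Apol9b are a pair of closely related mouse genes of the apolipoprotein L family, and each is measured by 1 probe on the array. They were selected out of 12128 tested features because, in earlier results from the same arrays, their level in untreated knockout cells was raised and their response to interferon was smaller there. The genotype difference in untreated cells and the difference between the responses are therefore given below as descriptions, without a test. The study used fibroblasts from mouse embryos, kept in culture, whose genotype was Sirt2+/+ (wild type) or Sirt2-/- (knockout). Untreated cells of each genotype were set beside cells given 2500 IU/ml of mouse interferon beta, which belongs to the type I interferons, for 4 h. Each of the 4 groups had 3 samples, each hybridised to its own single-colour Illumina bead array, 12 arrays in all. The labels give no age, strain or cell line for the embryos or cells, nor whether replicates came from separate embryos or cultures, so p-values reflect only the spread among these samples, possibly a technical one. Whether any genotype difference belongs to the allele or to the cells that carry it cannot be told apart in this design.

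Apolipoprotein L proteins bind lipid and are known in primates for trypanosome lysis by APOL1. In mice the family forms a cluster on chromosome 15, and Apol9a and Apol9b are known as interferon-induced genes whose products restrict Theiler's virus, bind prohibitin and bind phosphatidylethanolamine. Type I interferon signals through its receptor and the kinases Jak1 and Tyk2 to the transcription complex ISGF3, which contains Stat2 and Irf9 and binds the interferon-stimulated response element in the promoters of its targets. Sirt2 encodes a deacetylase that depends on NAD and is found mostly in the cytoplasm.

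The promoters of both genes carried the same sequence. In the RefSeq windows of GRCm38.p6, which reach from 250 bases before to 50 bases after each annotated gene start, 327 of 327 overlapping bases were identical between Apol9a and Apol9b. The stretches that end before the first annotated start are shown because they hold the interferon-stimulated motif. Capitals mark matches to the interferon-stimulated response element. It was searched on both strands as TTTC and TTTC with any 2 bases between them, or GAAA and GAAA on the opposite strand. In the Apol9 genes 2 matches overlap, as they also do in Apol7c and Apol7e. Corresponding windows of Apol7c and Apol10a, family members from the same cluster that also hold the motif, are set beside them.
Apol9a, chr15:77411103-77411199, minus strand: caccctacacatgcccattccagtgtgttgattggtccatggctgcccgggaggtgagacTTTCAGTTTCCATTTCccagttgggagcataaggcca
Apol9b, chr15:77728975-77729071, plus strand: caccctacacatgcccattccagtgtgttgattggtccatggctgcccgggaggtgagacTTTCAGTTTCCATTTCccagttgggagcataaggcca
Apol7c, chr15:77533341-77533390, minus strand: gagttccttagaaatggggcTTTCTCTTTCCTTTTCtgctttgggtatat
Apol10a, chr15:77476976-77477025, plus strand: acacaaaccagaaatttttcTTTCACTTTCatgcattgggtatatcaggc

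The motif began 59 or 105 bases before the annotated starts of Apol9a and 37 or 86 bases before those of Apol9b. It was present in 3.44% of 32851 promoter windows. Of the 12 other listed family members, 10 had a window and 6 of these held the motif (Apol7c, Apol7e, Apol10a, Apol10b, Apol11a and Apol11b). The windows of Apol7a, Apol7b, Apol8 and Apold1 held no match. The gamma-activated site TTCNNNGAA, whose reverse complement is the same, matched in 8.3% of windows and in neither Apol9 window. A match describes letters in a window and is not a measured binding site. Whether the probe of either Apol9 gene also binds the transcript of the other was not tested, so the values of the pair may not be separate measurements.

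Each array detected 17091 to 18155 of its 45281 probes, at a median intensity of 111 to 119.9. Within groups, Pearson's r between arrays was 0.987 to 0.996 across the 12128 tested features, which are not independent replicates. Of 10 fibroblast markers, 10 were detected on all arrays of both wild-type groups and 9 on all knockout arrays, and their summed linear level was 32322 to 42372 on wild-type and 17041 to 20461 on knockout arrays. Of 7 macrophage and leukocyte markers, 1 was detected on all arrays of each group, and their summed level was 545 to 647 in wild type and 295 to 332 in the knockout. No endothelial marker of 5 was detected on all arrays of any group, and no hepatocyte marker of 4 on any array. Of 5 epithelial markers, 1 to 3 were detected on all arrays of a group, and their summed level was 755 to 1041 in wild type and 134 to 195.9 in the knockout. Of 4 muscle markers, 1 was detected on all arrays of each group, with summed levels of 349 to 535 in wild type and 140.4 to 190.4 in the knockout. All summed levels include the offset of 16 that processing added to every probe. The part of these marker differences in the genotype values below was not tested, and in bulk RNA fewer cells of a type and less RNA per cell cannot be told apart. The Sirt2 probe fell by 2.41 ± 0.18 (SE, log2, n = 3 per group) in untreated and fell by 2.86 ± 0.18 in treated knockout cells (limma, adjusted p = 2.412e-07 and 6.623e-08), and it remained detected on all arrays.

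Untreated knockout arrays 2 and 3 stood apart from untreated knockout array 1. A set of 28 genes was chosen as expressed in both wild-type groups and low in the treated knockout mean. Their median level, on a scale from 0 on treated knockout array 1 to 100% in wild type, was -0.005 on array 1, 6.73 on array 2 and 4.43 on array 3. The same genes stood at 1.49% and 1.41% on treated knockout arrays 2 and 3, and 7 knockout-only genes stood at 2.65% on treated wild-type array 2. The choice of each set held these last values low, whereas the untreated knockout arrays had no part in choosing the 28 genes. The treated values are therefore no even standard for the untreated ones. On a scale that is 0 on untreated knockout array 1 and 100% in the treated knockout mean, 19 interferon-induced genes other than the Apol9 pair had a median of 11.3% on array 2 and 15% on array 3. The Apol9 values that rest on arrays 2 and 3 are therefore given with and without them.

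Apol9a transcripts were scarce in untreated wild-type cells, raised in untreated knockout cells, and high in treated cells of both genotypes. In deposited intensities, without background subtraction, the Apol9a probe read 139.7, 134.4 and 135.4 on the untreated wild-type arrays and 301, 554 and 661 on the untreated knockout arrays. With interferon it read 2124, 1739 and 2072 in wild type and 3019, 2398 and 2236 in the knockout. The untreated wild-type readings were the lowest and were still detected above the negative controls on each array, with detection p of 0.00321 to 0.00641. The untreated knockout readings lay between these and all 6 treated readings.

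Apol9b followed the same order. Its probe read 129.7, 126.9 and 128.0 on the untreated wild-type arrays, where it was detected on 2 of 3 arrays (detection p of 0.0545, 0.016 and 0.0214). It read 247.9, 361 and 392 on the untreated knockout arrays. With interferon it read 1666, 1270 and 1538 in wild type and 1611, 1205 and 1244 in the knockout. Here too the untreated knockout readings lay between the untreated wild-type and the treated readings, and the treated readings of the genotypes overlapped.

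After background correction and quantile normalization, Apol9a had log2 levels of 5.25, 5.40 and 5.46 in untreated wild type (mean 5.37 ± 0.11 SD, n = 3) and 10.96, 10.76 and 10.98 in treated wild type (10.90 ± 0.12). In the knockout the levels were 7.56, 8.80 and 9.11 untreated (8.49 ± 0.82) and 11.51, 11.21 and 11.09 treated (11.27 ± 0.22). The untreated knockout group had the widest spread of the 4, with array 1 lowest. Apol9b had log2 levels of 4.92, 5.14 and 5.19 in untreated wild type (5.09 ± 0.15), 10.61, 10.30 and 10.55 in treated wild type (10.48 ± 0.16), 7.16, 8.04 and 8.22 in untreated knockout (7.81 ± 0.57) and 10.59, 10.17 and 10.19 in treated knockout (10.32 ± 0.23). Levels of different probes are not on a shared scale, so Apol9a and Apol9b are compared only in their differences between groups.

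**Figure D1:**
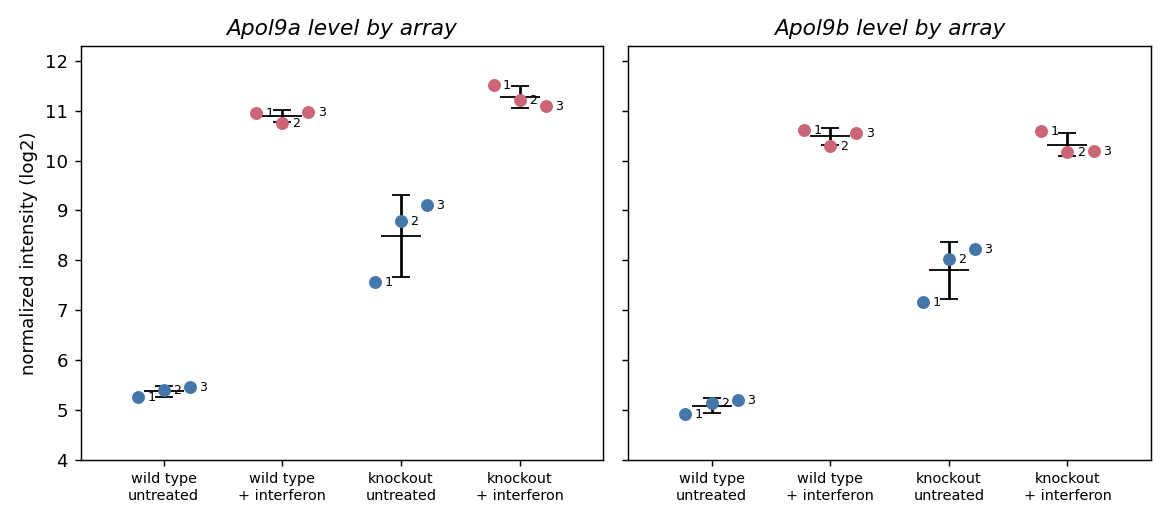
Normalized log2 intensity of Apol9a (left) and Apol9b (right) on each of the 12 arrays, with the array's replicate number beside each point and the group mean ± SD (n = 3) as bars; blue is untreated and red is treated. Untreated knockout arrays lie between the untreated wild-type and the treated arrays, and array 1 is the lowest of the 3 for both genes.

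The rise with interferon, averaged over the genotypes, was the comparison that was tested. With equal group sizes and equal spread it is independent of the differences by which the genes were chosen. Apol9a rose by 4.15 ± 0.20 on the log2 scale (SE, 17.8-fold, limma adjusted p = 4.111e-08) and Apol9b by 3.96 ± 0.16 (15.5-fold, adjusted p = 1.068e-08). In the same comparison 7.84% of features were called higher and 12.7% lower, and 2.51% were called higher by at least 2-fold. All 6 treated arrays lay above all 6 untreated arrays for each gene, which held for 3.34% of features. An exact two-sided permutation test within genotype gave p = 0.005 for each, the smallest value that its 400 arrangements allow. The spread was not equal, since the untreated knockout SD exceeded that of the other groups, so the independence is incomplete. Choosing the pair by a smaller response also took a response for granted. The p-values therefore describe a rise already seen in these same arrays. Without untreated knockout arrays 2 and 3 the mean response was 4.62 ± 0.11 for Apol9a (adjusted p = 1.835e-11) and 4.28 ± 0.12 for Apol9b (adjusted p = 9.157e-11), beside 6.35% of features called higher.

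Genotype by genotype, the Apol9a response was 5.53 ± 0.29 (SE, log2) in wild type, a 46.1-fold difference, and 2.78 ± 0.29 in the knockout, a 6.88-fold difference. For Apol9b these were 5.40 ± 0.22 (42.2-fold) and 2.51 ± 0.22 (5.71-fold). The wild-type values depend on how background is handled: without background subtraction they were 3.91 and 3.60 on the log2 scale. The knockout minus wild-type response was -2.74 ± 0.41 for Apol9a and -2.89 ± 0.32 for Apol9b. Over all features, 0.388% were called lower in this difference and 0.115% higher, and nothing is read from that share here because the genes were chosen by this contrast. The 3 treated arrays of a genotype lay above its 3 untreated arrays for both genes, which held for 10.6% of features in wild type and 10.1% in the knockout.

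The genotypes differed most before interferon was given. In untreated cells the knockout minus wild-type difference was 3.12 ± 0.29 (SE, log2, 8.67-fold) for Apol9a and 2.72 ± 0.22 (6.59-fold) for Apol9b, whereas under interferon it was 0.37 ± 0.29 and -0.17 ± 0.22. Without background subtraction the untreated differences were 1.78 and 1.34. In the untreated cells 27.1% of features were called higher in the knockout and 24.2% lower, and under interferon 27.1% and 23.2%. All 3 untreated knockout arrays lay above all 3 untreated wild-type arrays for each Apol9 gene, as for 30.9% of features. The 3 treated knockout arrays also lay above the treated wild-type arrays for Apol9a (11.09 to 11.51 against 10.76 to 10.98), as for 32.3% of features, while for Apol9b the treated groups overlapped. On the linear scale, untreated knockout arrays 1, 2 and 3 held 7.56%, 17.9% and 22.2% of the treated knockout mean of Apol9a, against 1.53% to 1.77% on untreated wild-type arrays. For Apol9b these shares were 11.1%, 20.4% and 23.2%, against 2.35% to 2.84%. All these shares include the offset of 16 that processing added to every linear level. The offset weighs most on untreated wild type. Linear levels there were 38.1 to 44.1 for Apol9a and 30.3 to 36.6 for Apol9b, which was undetected on array 1. The untreated wild-type shares are therefore no measure of transcript amount.

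Without untreated knockout arrays 2 and 3, which leaves array 1 as the only untreated knockout sample, assumed to vary like the other groups, the pattern was smaller and had the same direction. The untreated genotype difference became 2.18 for Apol9a and 2.07 for Apol9b. The knockout response became 3.71 and 3.16, and the difference of the responses -1.81 and -2.24. Array 1 was among the arrays by which the pair was chosen, so the kept direction is no separate check.

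The untreated knockout arrays are described here array by array. The Apol9 pair was chosen for its raised untreated knockout level and the reference genes were not, so its place above them is fixed by the choice and is no finding. On array 1 Apol9a was 2.18 (log2, 4.55-fold) and Apol9b 2.07 (4.20-fold) above the untreated wild-type mean, while 30 tested genes of the reference list had a median of 0.06. Of those 30 genes, 11 lay above all 3 untreated wild-type arrays, against 42.5% of all features, and 5 were at least 2-fold above the wild-type mean, against 5.51% of all features. The 5 were the chemokine Cxcl10 (3.98), the oligoadenylate synthetase-like genes Oasl1 (2.26) and Oasl2 (1.38), the ubiquitin-like modifier Isg15 (1.96) and the guanylate-binding protein Gbp3 (1.25), named after their values were seen. With genes not above background set at their background bound, 4 of the 30 remained at least 2-fold higher, Cxcl10 by at least 11.6-fold. These values come from 1 array and have no replicate check, and without background subtraction the Apol9 differences on it were 1.07 and 0.90.

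On untreated knockout arrays 2 and 3 the reference genes were raised more broadly. Apol9a stood 3.43 and 3.74 above the wild-type mean and Apol9b 2.95 and 3.14, while the median of the reference list was 2.04 and 2.66. Over all features the median was 0.05 on each of these arrays. On them 21 and 23 of the 30 reference genes were at least 2-fold above the wild-type mean. The share of all features above that cut was not counted for arrays 2 and 3, so these counts are descriptions. On the scale from untreated knockout array 1 to the treated knockout mean, Apol9a stood at 11.2% and 15.8% on arrays 2 and 3 and Apol9b at 10.5% and 13.7%, beside 11.3% and 15% for the 19 other interferon-induced genes. The part of this shared shift, and of the wild-type-only transcripts on the same arrays, in the Apol9 values was not tested.

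**Figure D2:**
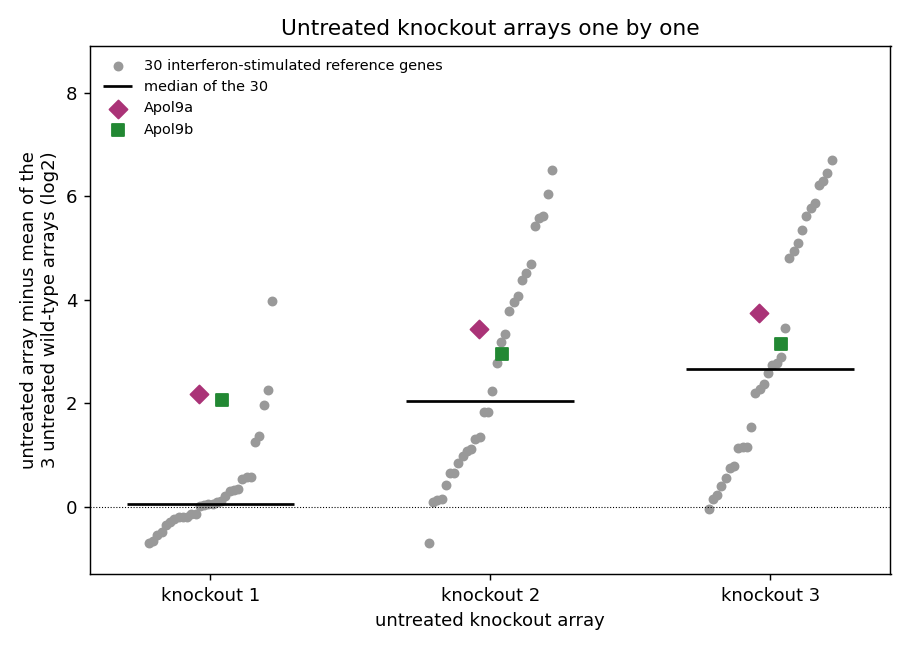
Level on each untreated knockout array minus the mean of the 3 untreated wild-type arrays (log2), for 30 reference interferon-stimulated genes (grey, sorted within each array, black line at their median), Apol9a (diamond) and Apol9b (square). On array 1 the reference median is 0.06 while Apol9a stands at 2.18 and Apol9b at 2.07; on arrays 2 and 3 the medians are 2.04 and 2.66.

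Among 254 named genes called at least 2-fold higher in the mean response, the median difference on untreated knockout array 1 was -0.07. Of these 254, 20 were at least 2-fold above the wild-type mean, against 5.51% of all features. Apol9a ranked 4 and Apol9b 6 of the 254, a rank on the quantity by which the pair was chosen. Above them stood Cxcl10, Plekha2 (2.99), which encodes a phosphoinositide-binding adaptor, and Oasl1, with the neurotrophic factor Gdnf (2.14) between the pair. Plekha2 and Gdnf were named after their values were seen. On arrays 2 and 3 the median of the 254 was 0.58 and 0.76, against 0.05 over all features on each. There 82 and 107 of the 254 were at least 2-fold above wild type, counts for which no share over all features was taken.

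In the reference list, 30 of 30 tested genes were called higher in the mean response, against 7.84% of features, with a median of 4.05 against -0.05 for all features. Of the 30, 15 passed the filter on low values only through treated groups and had to be higher there, so this count is a description. The 3 with the largest measured difference over all 12 arrays were Cxcl10 (6.84, at least 98.3-fold, limma adjusted p = 3.503e-08), Rsad2, the gene of viperin, an enzyme active against viruses (6.83, at least 94.4-fold, adjusted p = 3.038e-06), and the guanylate-binding protein Gbp2 (6.80, at least 104-fold, adjusted p = 2.639e-06). All 3 were undetected in untreated wild type, and by the lower bounds Gbp2 stood first. Other genes led without untreated knockout arrays 2 and 3, namely Igtp (8.34), Usp18 (8.34) and Ifit3 (8.24), which were named after their values were seen. The responses of the Apol9 genes lay near the list's median. By genotype, 30 of the 30 rose in wild type with a median of 4.99, against 6.27% of features called higher, and 28 in the knockout with a median of 3.34, against 4.3%. Without untreated knockout arrays 2 and 3, 29 of the 30 rose in the knockout, against 3.37% of features, and the median was 4.52.

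In untreated cells 20 of the 30 reference genes were called higher in the knockout, with a median of 1.60, against 27.1% of features called higher. That count rested on arrays 2 and 3: without them 6 were called higher and 2 lower, with a median of 0.06, against 19.5% and 18.4% of all features. For the difference of the responses, 1 of the 30 was called lower in the knockout, against 0.388% of features. The treated genotype difference was called for 1 gene upward and 2 downward, against 27.1% and 23.2% of features, and for 6 in each direction without arrays 2 and 3, against 26.6% and 22.9% of features, a change that comes from the estimate of the spread since the treated arrays were the same.

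**Figure D3:**
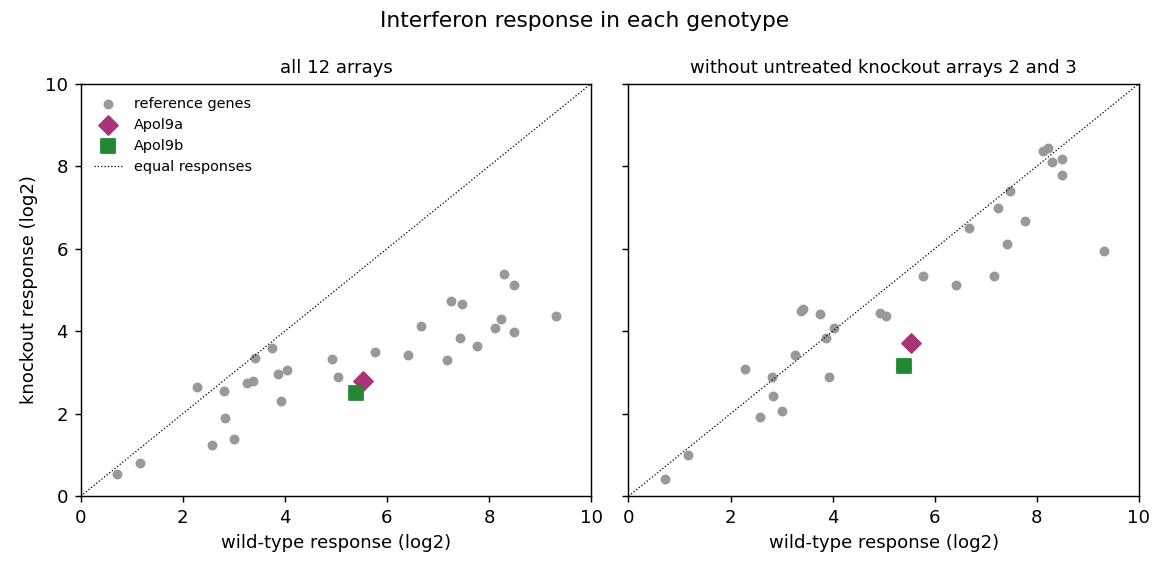
Knockout response against wild-type response to interferon (log2 differences) for the reference genes (grey), Apol9a (diamond) and Apol9b (square), from all 12 arrays (left) and without untreated knockout arrays 2 and 3 (right); the dotted line marks equal responses. With all arrays the knockout response of Apol9a is 2.78 and of Apol9b 2.51. Without the pair of arrays they are 3.71 and 3.16, while the reference median moves from 3.34 to 4.52. The Apol9 genes were chosen for a smaller knockout response, so their place below the line is favoured by the choice and is no finding.

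Few apolipoprotein L relatives could be measured. Of the 12 other family members listed, 9 had a probe and 3 passed the filter on low values (Apol6, Apol7a and Apol10b). Of these, Apol6 and Apol7a passed only through treated groups, where they were high, so their rise was fixed by the filter and supports nothing about the family. Probes of Apol7b, Apol8, Apol10a, Apol11b and Apold1 were detected on no array, the Apol7c probe was detected on 1 array, and Apol7d, Apol7e and Apol11a had no probe. Apol7a rose by 2.67 ± 0.20 in the mean response (SE, log2, limma adjusted p = 6.989e-07). Apol6, undetected in untreated wild type, had a measured difference of 2.07 ± 0.15 and was at least 3.60-fold higher (adjusted p = 4.041e-07). Apol10b had 0.72 ± 0.08 and was at least 1.57-fold higher (adjusted p = 2.793e-05).

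No genotype difference of the relatives was called in untreated cells, where many of their readings were not above background. Of 3 untreated arrays per genotype, Apol7a was detected on 1 in wild type and 2 in the knockout, and Apol6 on 0 and 1. Untreated Apol7a had log2 levels of 4.96, 4.55 and 4.76 in wild type and 4.62, 5.68 and 6.04 in the knockout, a difference of 0.69 ± 0.29 (limma adjusted p = 0.06007). On knockout array 1 it lay within the wild-type range. Untreated Apol6 read 4.36, 4.73 and 4.38 in wild type and 4.35, 5.24 and 4.47 in the knockout, a difference of 0.19 ± 0.21 (adjusted p = 0.4615), and the groups overlapped. Untreated Apol10b read 4.82, 4.76 and 4.83 in wild type, below the detection threshold, and 4.95, 5.07 and 5.06 in the knockout, a difference of 0.22 ± 0.11 (adjusted p = 0.1202), though the groups did not overlap. Between the responses the difference was -1.31 for Apol7a (adjusted p = 0.3101), -1.25 for Apol6 (adjusted p = 0.1191) and 0.02 for Apol10b. When untreated knockout arrays 2 and 3 were left out, the untreated difference was -0.13 for Apol7a, -0.14 for Apol6 and 0.15 for Apol10b. On array 1 neither Apol7a nor Apol6 was detected, so their untreated differences compare readings near background. The difference of the responses was then -0.48 for Apol7a, -0.91 for Apol6 and 0.09 for Apol10b. Whether any of these differed from the values of the Apol9 pair was not tested.

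Under interferon, Apol6 was lower in the knockout. It had log2 levels of 7.37, 7.02 and 7.16 in treated wild type and 6.31, 6.22 and 5.85 in the treated knockout, groups that did not overlap, with a difference of -1.06 ± 0.21 (limma adjusted p = 0.0009392). Apol7a differed by -0.62 (adjusted p = 0.09091) and Apol10b by 0.24, and neither passed the threshold. Of the 3 tested relatives 1 was therefore called lower, against 23.2% of all features, and nothing is read about the family from that call. Leaving out untreated knockout arrays 2 and 3 changed the estimate of the spread and not these values.

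The RefSeq gene order places Apol6, Rbfox2, Apol7a, Apol9a, Apol10b, Apol9b, Myh9, Txn2, Foxred2, Eif3d and Ift27 along chromosome 15 in that order when only tested genes are kept. Of 37 genes within 10 places on either side of the Apol9 genes, 17 had a probe and 9 were tested. In the mean response 4 of these 9 were called higher, against 7.84% of features: Apol6 and Apol7a, which were tested only through treated groups, Apol10b and the splicing factor Rbfox2 (0.54 ± 0.07, limma adjusted p = 0.000154). The non-muscle myosin heavy chain Myh9 (-0.03), the mitochondrial thioredoxin Txn2 (0.14), Foxred2 (-0.01), the translation initiation subunit Eif3d (0.07) and the intraflagellar transport gene Ift27 (0.08) did not pass. All 5 of these lie on the Myh9 side of Apol9b.

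**Figure D4:**
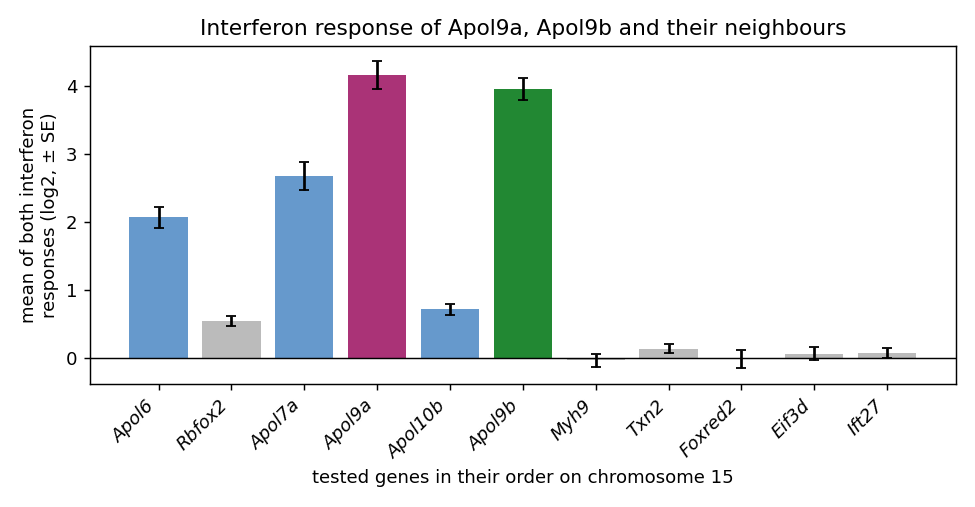
Mean of the wild-type and knockout interferon response (log2, bars ± SE) of the Apol9 genes and the tested genes around them, in chromosome order but not to distance; blue bars are other apolipoprotein L genes and grey bars are unrelated neighbours. Apol9a (4.15) and Apol9b (3.96) have the tallest bars, and Myh9, Txn2, Foxred2, Eif3d and Ift27 lie between -0.03 and 0.14.

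The signalling components that act upstream of such genes moved unequally. Stat2, the transactivating subunit of ISGF3, rose by 3.54 ± 0.38 in the mean response (SE, log2, limma adjusted p = 1.604e-05), and Irf9, its DNA-binding subunit, by 3.00 ± 0.16 (adjusted p = 5.083e-08). The receptor chain Ifnar2 rose by 0.27 ± 0.07 (adjusted p = 0.01387), a call that was lost without untreated knockout arrays 2 and 3 (0.24, adjusted p = 0.115). The kinases Jak1 (-0.02) and Tyk2 (0.00) did not pass, so 3 of 5 tested genes were called, against 7.84% of features. In untreated cells Irf9 was higher in the knockout by 0.97 ± 0.22 (adjusted p = 0.002538) and Tyk2 lower by -0.39 ± 0.11 (adjusted p = 0.01048). Without arrays 2 and 3, the untreated difference was 0.31 for Irf9, -0.37 for Tyk2 and -1.46 for Stat2. These values rest on array 1 alone. Stat2 was detected on only 2 of the 3 untreated knockout arrays, so its value may be a difference from background.

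Among genes of other apolipoproteins and of the known partners of Apol9, only Etnk1 was called in the mean response. Of 2 tested apolipoproteins from other families, neither Apoc2 (-0.01) nor Apom (-0.22) passed in the mean response. The prohibitin Phb2, the only one of 3 listed that was tested, had 0.05 (limma adjusted p = 0.7511). Its untreated level was higher in the knockout by 0.43 ± 0.12 (adjusted p = 0.008095), and without untreated knockout arrays 2 and 3 by 0.44 (adjusted p = 0.07446), much the same value with a wider error. Of 7 tested genes of phosphatidylethanolamine synthesis, the ethanolamine kinase Etnk1 was called, higher by 1.06 ± 0.09 (adjusted p = 2.049e-06), and the other 6 did not pass.

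Across the 12 arrays the normalized log2 levels of Apol9a and Apol9b correlated with Pearson's r of 0.995. This and the following values are descriptions over arrays that share the treatment and genotype groups, and no p is attached to them. The 5 named genes most like Apol9a were Cxcl10 (0.999), Oasl1 (0.993), Isg15 (0.993), Gbp3 (0.989) and the zinc finger gene Zfp296 (0.989). For Apol9b they were Cxcl10 (0.992), Isg15 (0.988), Gbp3 (0.987), the ubiquitin ligase gene Dtx3l (0.987) and the immunoproteasome subunit Psmb10 (0.987).

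Cxcl10, the closest to both, read 4.46, 4.52 and 4.51 in untreated wild type, below the detection threshold, and 8.47, 10.53 and 11.19 in untreated knockout. With interferon it read 13.85, 13.80 and 13.77 in wild type and 14.60, 14.30 and 14.37 in the knockout. As for Apol9a, the untreated knockout arrays lay between the untreated wild-type and the treated arrays, with array 1 lowest. Zfp296 repeated this order over a narrower range, from 6.32, 6.90 and 6.50 in untreated wild type and 7.65, 8.01 and 8.26 in untreated knockout to 9.14, 9.16 and 9.32 in treated wild type and 9.93, 9.57 and 9.50 in treated knockout. All 7 of the genes named as most like the pair were called higher in untreated knockout cells, against 27.1% of features. They ranged from Psmb10 (1.29 ± 0.19, limma adjusted p = 0.0001045) to Cxcl10 (5.57 ± 0.47, at least 35.2-fold, adjusted p = 6.165e-07). These genes were picked for a pattern that contains this difference, so the count and the p-values are no separate test of it. With array 1 as the only untreated knockout array, the difference was smaller for each gene, from 0.80 for Psmb10 to 3.98 for Cxcl10. Gbp3 then stood at 1.25, against 3.53 with all arrays.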

How the data were processed

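RNA from 12 samples, 150 ng of total RNA each, was labelled with biotin and hybridised to single-colour Illumina bead arrays, per the labels' protocols. The authors deposited a linear intensity per probe and array, with a detection p-value per the file headers, and a further deposited table of log2 values, which equalled the quantile-normalized log2 intensities within 0.00183. Intensities were processed with neqc of limma 3.58.1 in R 4.3.3: normexp background correction (negative controls estimated through those p-values), offset 16, quantile normalization and log2. A probe was kept when every array of some group had a detection p under 0.05 (17837 of 45281 probes). The brightest probe stood for a symbol, which gave 12128 features, 9723 of them named. Of all probes, 34885 had 1 gene symbol, 18 several and 10378 none.

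A mean per group was fitted with limma over the 12 arrays and moderated by empirical Bayes. Tests are two-sided and adjusted by Benjamini-Hochberg over 12128 features, with a threshold of 0.05. Quantile normalization assumes like intensity distributions, and background correction sets the scale of low readings. A fold against a group in which a gene was undetected on all arrays is a lower bound against background. The number of arrays limits the precision. The fit was tested on simulated data.

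The members, gene lists, marker sets and tests were chosen with earlier results of these data known. The text names the Apol9 genes, Sirt2, the tested apolipoprotein L family and neighbouring genes, the 5 genes most correlated with each Apol9 gene, and up to 3 called genes with the largest mean response per list; exceptions are stated. Promoter sequences come from RefSeq, GRCm38.p6. Alternatives were other background corrections, offsets, scalings, filters and probe choices, the deposited log2 values, a replicate block, and leaving out arrays. Leaving out untreated knockout arrays 2 and 3 from the lists was added after the data were seen.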

Additional observations from a re-analysis of the deposited data

Results flagged for a closer look

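The interferon response of Cxcl10, the gene whose levels were most like those of both Apol9 genes, differed between the genotypes by a test of the difference itself. Its knockout minus wild-type response was -4.95 ± 0.66 (SE, log2, n = 3 per group, limma adjusted p = 0.003897). Cxcl10 was picked for its likeness to a pair chosen for this same difference, so the p tests a pattern that the choice favoured. With its untreated wild-type level, which was not above background, set at the background bound, the difference was -4.52. Without untreated knockout arrays 2 and 3, which leaves array 1 as the only untreated knockout sample, the difference was -3.36. Untreated cells had a mean log2 level of 4.49 (wild type, not above background) and 10.06 (knockout), and treated cells 13.81 and 14.42.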

How the results depend on the processing

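The mean responses of Apol9a and Apol9b kept their direction and their call under all alternatives run, from 2.85 (Apol9b, deposited values) to 4.62 (Apol9a, without untreated knockout arrays 2 and 3). Mean responses were judged by direction and call, and not by size. The other Apol9 values, which were not tested, were judged by direction and by a shift within their SD. The number of called features was judged by its ratio to the main one. By these rules 278 of 309 alternatives stayed the same and none reversed. Some could not change, such as the excess on untreated knockout array 1 when treated arrays were left out. A reversal could not be assigned to the treated difference of Apol9b, which was smaller than its SD. Background handling moved the differences that rest on the faint untreated wild-type readings. Without background subtraction, and in the authors' deposited log2 values, the wild-type response was 3.91 for Apol9a and 3.60 for Apol9b, the untreated genotype difference 1.78 and 1.34, the difference of the responses -1.43 and -1.50, and the excess on untreated knockout array 1 1.07 and 0.90. With an offset of 50 these were 4.69 and 4.43, 2.39 and 1.93, -2.03 and -2.09, and 1.56 and 1.38. Without untreated knockout arrays 2 and 3 the knockout response was 3.71 and 3.16, the untreated difference 2.18 and 2.07 and the difference of the responses -1.81 and -2.24. Leaving out 1 array at a time gave a difference of the responses of -3.21 to -2.43 for Apol9a and mean responses of 3.92 to 4.31 for Apol9a and 3.79 to 4.06 for Apol9b. Median scaling changed the calls of the mean response from 951 higher and 1542 lower to 801 and 2716, and leaving out arrays 2 and 3 gave 770 and 945. The call of Ifnar2 was lost with median scaling (adjusted p = 0.1478) and with the mean of kept probes (0.08781). Same-numbered samples deviated from their group means with correlations of -0.12 to 0.18 over 18 pairs, of which 4 exceeded 0.1. With only 3 arrays per group mean, these values cannot show whether the numbers pair the samples. With the replicate block the mean response was 4.15 for Apol9a (adjusted p = 3.099e-07) and 3.96 for Apol9b (2.073e-07), and 2445 features were called against 2493. A slide block was not run because the headers used here name no slide. The faint wild-type readings, close to the negative controls, limit every fold against untreated wild type.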
